A study of Mus musculus with 18 samples.

Results

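The genes described here encode the subunits, activators, inhibitor and assembly chaperones of the constitutive proteasome. They were taken by symbol, as every gene named Psma to Psmg with a number, without the immunoproteasome genes Psmb8, Psmb9 and Psmb10. The rule found 45 genes among the 56691 features of one count table and the 56893 of the other. Of these, 43 passed the filter on low counts in both tables. Psma8, an alpha subunit known from the testis, had 0 to 2 counts per library. Psmb11, a beta subunit of the thymus cortex, had 1 to 13, and neither gene was tested.

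RNA was sequenced from epithelial organoids grown from the mammary glands of nulliparous, wild type C57BL/6 mice. In the estradiol experiment, organoids from mice of about 24 weeks received 10 nM estradiol or the solvent ethanol for 11 days within 12 days of culture. In the Torin experiment, organoids from mice of about 15 weeks received 100 nM Torin 1, an inhibitor of the kinase mTOR, or the solvent DMSO, and were collected on day 18 of culture. That experiment has 2 arms, D6 and D12. The titles of the samples give 6 days of treatment for D6 and 12 for D12, whereas the design text of the series gives the opposite, and the arms also carry separate batch tags. The arms are therefore named D6 and D12 without reading either as the longer treatment, since batch, length and start of treatment cannot be told apart. Each of the 6 groups had 3 libraries.

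The proteasome is the protease that degrades proteins marked with ubiquitin. Its barrel-shaped core is built from rings of alpha and beta subunits, and 3 of the beta subunits (Psmb5, Psmb6 and Psmb7) carry the catalytic sites. A regulatory particle caps the core: its base contains the ATPases (Psmc genes) that unfold substrates, and its lid contains the deubiquitinase Psmd14 that removes the ubiquitin chain. Activators (Psme genes) can dock on the core in place of the regulatory particle, and dedicated chaperones help to assemble the core and the base. Mammary epithelium relies on protein turnover as it grows and regresses under hormones.

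Libraries of the estradiol experiment held 20637473 to 24312079 counts and those of the Torin experiment 23239364 to 28910688. The biological coefficient of variation between replicates was 5.27% and 20.2%, so an equal fold change passed the test more readily with estradiol. Levels are given as CPM, the counts scaled to a fixed library total. The 6 epithelial markers (Epcam, Krt8, Krt18, Krt5, Krt14, Cdh1) summed to 11300 to 11700 CPM with ethanol and 11300 to 11900 with estradiol, to 6260 to 7410 with DMSO and 8070 to 9760 with Torin in D6, and to 7920 to 8210 and 5000 to 6330 in D12. The immune and adipocyte lists summed to at most 1.98 CPM and the endothelial list to 3.94 to 14.1 CPM. The 6 fibroblast markers summed to 251 to 279 CPM with ethanol and 354 to 423 with estradiol, to 839 to 1190 with DMSO and 260 to 292 with Torin in D6, and to 849 to 981 and 675 to 972 in D12. The part of these shifts in epithelial and fibroblast markers in the results below was not tested, and in bulk RNA fewer cells of a type and less RNA per cell cannot be told apart. Torin D6 replicate 3 stood apart from the other libraries of its group: the chi-square per degree of freedom over genes was 102 and 124 against them, and 13.6 between them. Torin D12 replicate 3 did so less (42.3 and 46.0, against 7.77), and values without these libraries are given beside the results they touch.

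The promoters of a few members that the results turn on are shown first. The RefSeq table of the build GRCm38.p6, which reaches from 250 bases before to 50 after a start, held promoters for 37 of the 45 genes (40 promoters). It had no entry for Psma8, Psmb1, Psmb2, Psmb7, Psmc3, Psmd3, Psmd7 and Psmg2. The counts rest on the build GRCm39, so these coordinates serve only the sequences. The lines below give the 120 bases before the start, 5′ to 3′ on the strand of the gene. Capitals mark CCGGAAG, the core of an ETS site, or its reverse complement, and in Psmb5 the core of an antioxidant response element, TGACNNNGC. Psmc2 (which has 2 starts) and Psmd6 are genes of the base and the lid, Psme3 is the activator with the highest rise, and Psmb5 encodes a catalytic subunit. They were chosen because they hold a motif, so they do not stand for all members that rose.
Psmc2, first start (chr5:21785155-21785274, plus strand): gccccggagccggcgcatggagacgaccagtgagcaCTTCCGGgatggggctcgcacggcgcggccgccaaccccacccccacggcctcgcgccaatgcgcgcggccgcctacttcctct
Psmc2, second start (chr5:21786627-21786746, plus strand): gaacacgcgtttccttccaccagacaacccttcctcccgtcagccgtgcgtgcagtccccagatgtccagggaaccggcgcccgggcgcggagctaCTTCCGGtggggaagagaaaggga
Psmd6 (chr14:14120946-14121065, minus strand): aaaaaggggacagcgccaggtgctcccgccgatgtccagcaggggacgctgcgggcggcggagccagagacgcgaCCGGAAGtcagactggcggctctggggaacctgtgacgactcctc
Psme3 (chr11:101316093-101316212, plus strand): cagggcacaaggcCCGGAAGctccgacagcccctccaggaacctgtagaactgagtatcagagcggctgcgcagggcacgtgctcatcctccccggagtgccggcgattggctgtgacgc
Psmb5 (chr14:54617996-54618115, minus strand): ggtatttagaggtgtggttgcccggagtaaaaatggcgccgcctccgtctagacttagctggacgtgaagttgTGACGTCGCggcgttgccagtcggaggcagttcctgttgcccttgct

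CCGGAAG was present on either strand in the promoters of 9 of 14 base and lid genes with an entry (64.3%), namely 5 of 8 base and 4 of 6 lid genes, but in 1 of 12 core genes (8.33%). The motif was also found in 2 of 4 activators and 2 of 6 chaperones, and was absent from the window of the inhibitor gene. It was present in 8.86% of all 32851 promoters of the table and in 16.3% and 15.5% of those of genes tested in the estradiol and Torin experiments. TGACNNNGC was present in 6 of 37 members (16.2%), in 12.4% of all promoters and in 14.1% and 14% of those of tested genes. CCAAT, the NF-Y box, was present in 7 of 12 core genes and 4 of 14 base and lid genes, against 37.4% of all promoters and 37.6% and 37.5% of those of tested genes. The E-box CACGTG was present in 3 of 37 members (8.11%), against 7.15% of all promoters and 9.57% and 9.37% of those of tested genes. Members were counted here as genes, with a match in any of their promoters, whereas the shares of all and of tested genes count single promoters. Counted as promoters, 37.5% of the 40 member promoters held CCGGAAG, 15% TGACNNNGC, 32.5% CCAAT and 7.5% CACGTG. Both strands were searched, and 0 sites in these members overlapped a site of another motif. CCGGAAG was not found in the windows of Psmc4, Psmc5, Psmd1 and Psmd14, which are among the members with the highest rises below, and it was found in that of Psmc6, which did not rise in any comparison. A match describes the letters only.

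With estradiol, proteasome transcripts were higher, and the regulatory particle more so than the core. Of the 43 genes tested, 25 rose and 0 fell, while 17.4% of all 15358 genes tested rose and 16.6% fell (edgeR's quasi-likelihood test, Benjamini-Hochberg adjusted p under 0.05, the threshold throughout). The log2 fold change was above 0 for 40 of the 43, against 49.1% of all genes, with a median of 0.18, against -0.006. DESeq2 also called 0 falls, and at an unadjusted p under 0.05 edgeR gave 1, the beta subunit gene Psmb1 (log2 -0.10), which passed as a fall without estradiol replicate 3 (log2 -0.13, adjusted p = 0.0397). The changes were small. The highest was that of Psmc4, at 1.36-fold. The groups did not overlap for 29 members, of which 27 were higher with estradiol. Among all genes this held for 46.4% (7126 genes, of which 3625 were higher). The 25 rises comprised 16 of 17 base and lid genes, 4 of 14 core genes, 3 of 4 activators, the inhibitor, and 1 of 7 chaperones.

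**Figure D1:**
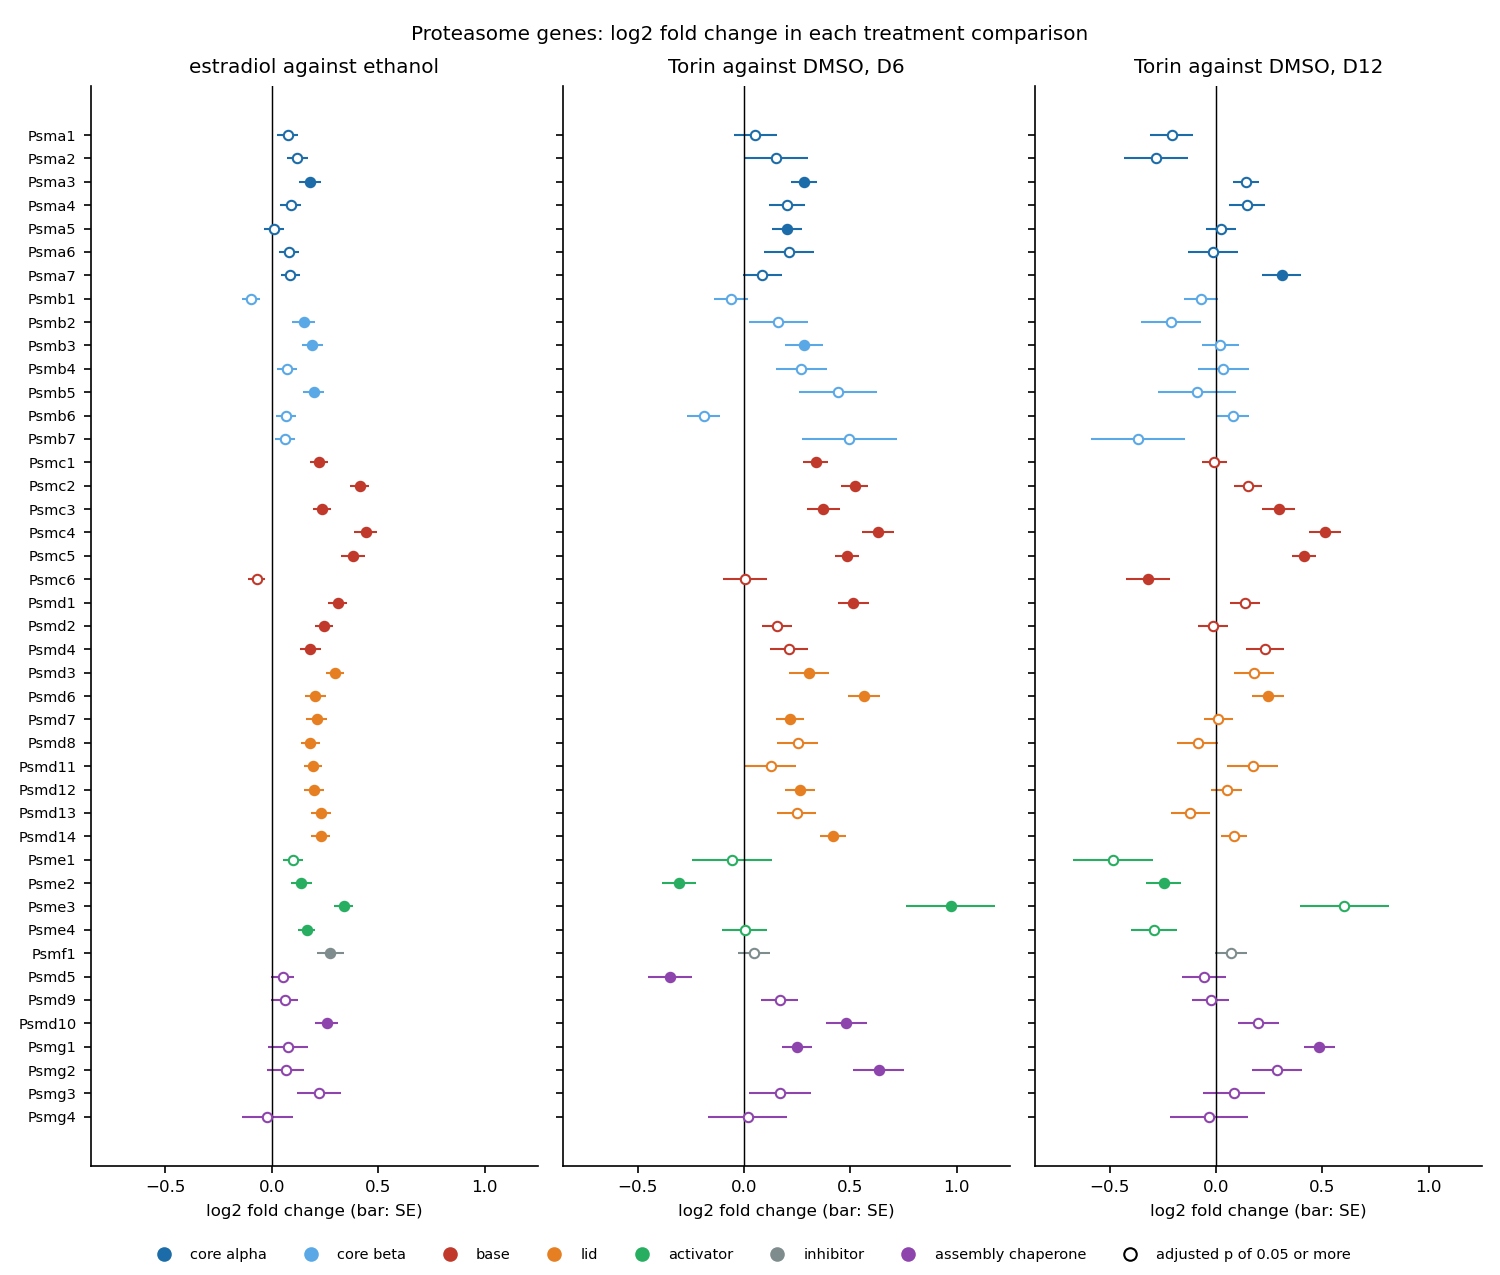
The log2 fold change (x axis, bars are the standard error) of the 43 tested proteasome genes (rows) in the 3 treatment comparisons, with color for the class and filled points for an adjusted p under 0.05. With estradiol 25 points are filled and all lie right of 0; with Torin 20 are filled in D6 and 8 in D12, and most of the filled points belong to base and lid.

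Among the ATPases of the base, 5 of 6 rose with estradiol. Psmc2 was at 79.8, 83.1 and 86.1 CPM in the ethanol libraries and at 112, 111 and 108 CPM in the estradiol libraries, a log2 fold change of 0.41 (SE 0.045, adjusted p = 5.95e-06). Psmc4 was at 70.5, 74.4 and 80.0 CPM with ethanol and at 101, 98.1 and 106 CPM with estradiol (log2 0.44, SE 0.053, adjusted p = 1.43e-05). In both genes every estradiol library lay above every ethanol library. Psmc6, also an ATPase, was the one base gene that did not pass, at 146, 143 and 145 CPM with ethanol and 136, 135 and 142 CPM with estradiol (log2 -0.07, adjusted p = 0.207). Psmd1 and Psmd2, the scaffolds of the base, rose by a log2 of 0.31 and 0.25. Psmd4, which binds ubiquitin chains, went from 110, 119 and 125 CPM to 136, 132 and 133 CPM (log2 0.18, SE 0.050, adjusted p = 0.0113).

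All 8 lid genes rose with estradiol, within a narrow band of log2 0.18 to 0.30. Psmd14, the deubiquitinase, was at 74.8, 78.8 and 80.3 CPM with ethanol and 93.4, 89.7 and 91.0 CPM with estradiol (log2 0.23, SE 0.045, adjusted p = 0.00105). Psmd3, a structural lid subunit, had the highest change, from 136, 139 and 132 CPM to 168, 170 and 162 CPM (log2 0.30, SE 0.042, adjusted p = 6.65e-05). The groups did not overlap for any of the 8 genes.

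Core genes changed less with estradiol: their median log2 fold change was 0.08, against 0.23 for base and lid. Those that rose were Psma3, an alpha ring subunit, and the beta subunits Psmb2, Psmb3 and Psmb5. Psmb5, which carries the chymotrypsin-like site, was at 80.8, 82.6 and 88.3 CPM with ethanol and 99.4, 91.6 and 97.5 CPM with estradiol (log2 0.20, SE 0.049, adjusted p = 0.00643). Psmb6 (caspase-like) was at 102, 108 and 114 CPM with ethanol and 115, 111 and 113 CPM with estradiol (log2 0.07, adjusted p = 0.293). Psmb7 (trypsin-like) was at 124, 122 and 126 CPM and 126, 124 and 137 CPM (log2 0.06, adjusted p = 0.331). The groups of Psmb6 and Psmb7 overlapped and neither passed, whereas every estradiol library of Psmb5 was above every ethanol library. Psma3 went from 111, 118 and 124 CPM to 139, 126 and 134 CPM (log2 0.18, SE 0.051, adjusted p = 0.0130). Psmb3 went from 85.3, 83.4 and 83.9 CPM to 102, 91.1 and 94.8 CPM (log2 0.19, SE 0.049, adjusted p = 0.00727). Psma3 did not pass without estradiol replicate 1 (adjusted p = 0.0693), and Psmb2 (log2 0.15) without any one of 4 libraries, estradiol or ethanol replicate 1 or 2 (adjusted p 0.0691 to 0.184).

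Summed over genes, base and lid together were at 1937, 2025 and 2046 CPM in the ethanol libraries and 2388, 2320 and 2364 CPM in the estradiol libraries, a shift past the spread of either group. The core sum was at 1611, 1670 and 1677 CPM with ethanol and 1769, 1681 and 1790 CPM with estradiol. The ratio of both sums was 1.203, 1.213 and 1.22 with ethanol and 1.35, 1.38 and 1.32 with estradiol, so that every estradiol library lay higher. As a ratio of transcript counts that are not scaled by gene length, it says nothing of the ratio of the particles.

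**Figure D2:**
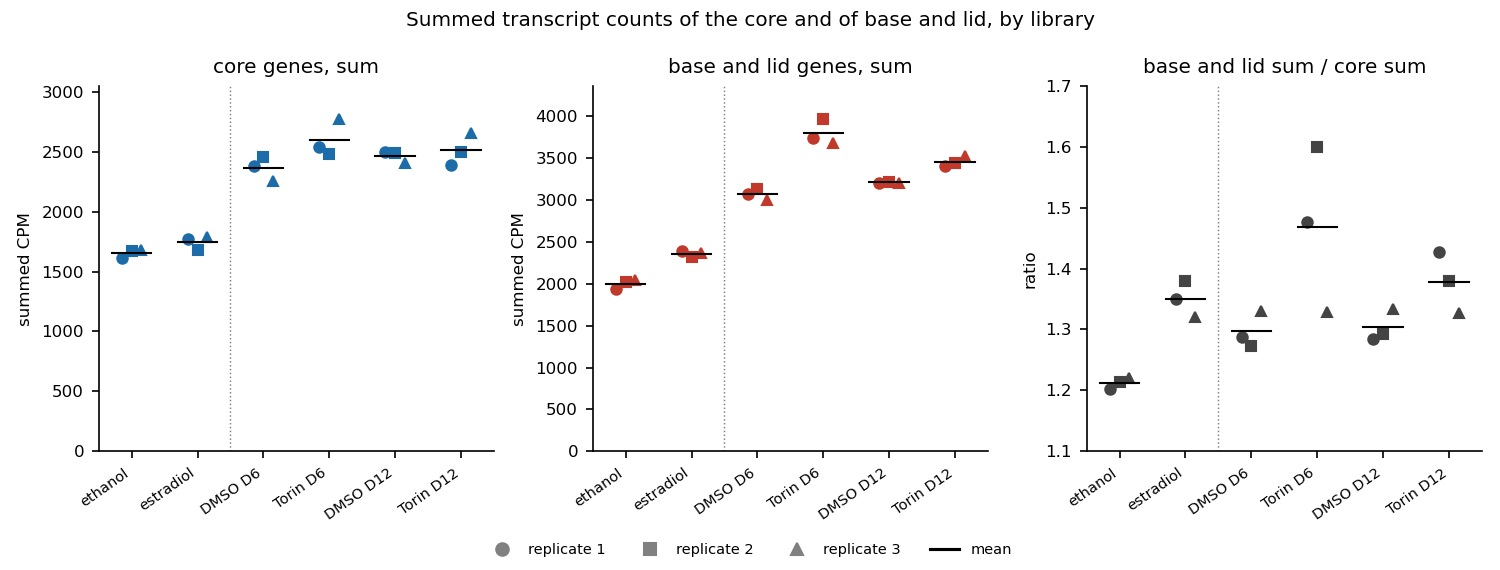
Summed CPM of the core genes (left), of base and lid genes (middle) and their ratio (right) for each library, with the marker shape for the replicate and a line for the group mean; the dotted line divides the separately normalized experiments. The ratio is 1.203 to 1.22 with ethanol and 1.32 to 1.38 with estradiol, and in Torin D6 replicate 3 lies at 1.33 among the DMSO libraries.

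Of the activators, Psme3, which forms a ring found mainly in the nucleus, was at 85.1, 90.6 and 90.5 CPM with ethanol and 113, 113 and 111 CPM with estradiol (log2 0.34, SE 0.044, adjusted p = 3.64e-05). Psme4, a single-chain activator, went from 166, 164 and 163 CPM to 184, 183 and 185 CPM (log2 0.16, SE 0.039, adjusted p = 0.00459). In both, the 3 estradiol libraries were within a few CPM of each other and above all ethanol libraries. Psme1 and Psme2 form the activator known to be induced by interferon. Psme2 rose by a log2 of 0.14 (adjusted p = 0.0409), from 116, 123 and 119 CPM to 132, 124 and 138 CPM. That call was lost without any one of 4 libraries, replicate 1 or 3 of either group (adjusted p 0.0775 to 0.152). Psme1 did not pass, with 111, 124 and 122 CPM against 129, 126 and 127 CPM (log2 0.10, adjusted p = 0.133).

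Psmf1, which encodes an inhibitor of the core, rose from 25.6, 26.8 and 24.4 CPM to 33.1, 30.3 and 29.6 CPM with estradiol (log2 0.28, SE 0.065, adjusted p = 0.00430). Among the chaperones, Psmd10 (gankyrin, a chaperone of the base) rose from 44.4, 46.0 and 41.1 CPM to 50.7, 51.9 and 54.7 CPM (log2 0.26, SE 0.054, adjusted p = 0.00200). The base chaperones Psmd5 and Psmd9 and the 4 core chaperones Psmg1 to Psmg4 did not pass, with log2 fold changes from -0.02 to 0.22. With any one library left out, 22 to 25 members rose with estradiol, and 22 of the 25 rises passed in each of these fits. A limma fit of the deposited normalized values called 12 members, 10 of 17 base and lid genes and 0 core genes, although the median log2 fold changes were 0.23 and 0.10.

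In D6, Torin raised part of the same complex. Of the 43 members 18 rose and 2 fell, while 19.8% of all 18112 genes tested rose and 19.3% fell. The log2 fold change was above 0 for 38 of the 43, against 53.6% of all genes, with a median of 0.22, against 0.05. The rises comprised 6 of 9 base, 5 of 8 lid, 3 of 14 core and 3 of 7 chaperone genes and 1 of 4 activators. The 2 falls were Psme2 and the chaperone Psmd5. The groups did not overlap for 25 members, of which 22 were higher with Torin. Among all genes this held for 48.5% (8783 genes, of which 4389 were higher). The median log2 fold change was 0.20 for core genes and 0.31 for base and lid genes (0.26 for lid alone). The core sum in D6 was at 2381, 2458 and 2258 CPM with DMSO and 2536, 2480 and 2771 CPM with Torin. Every Torin library thus lay above every DMSO library in the core sum as well.

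The ATPase gene Psmc4 was at 142, 138 and 132 CPM in the DMSO libraries and 212, 235 and 190 CPM in the Torin libraries of D6 (log2 0.63, SE 0.075, adjusted p = 4.40e-05). Psmc5, its neighbour in the ATPase ring, was at 140, 138 and 140 CPM with DMSO and 188, 205 and 191 CPM with Torin (log2 0.48, SE 0.056, adjusted p = 3.54e-05). Every Torin library exceeded every DMSO library in both genes. Psmc1, Psmc2, Psmc3 and the scaffold Psmd1 rose by log2 0.34, 0.52, 0.37 and 0.52. Psmc6 again stood aside, at 203, 203 and 190 CPM with DMSO and 197, 184 and 217 CPM with Torin (log2 0.01, adjusted p = 0.976). Psmd4, the ubiquitin receptor, had 213, 214 and 208 CPM with DMSO and 238, 276 and 220 CPM with Torin. It did not pass (log2 0.21, adjusted p = 0.0845), although the groups did not overlap.

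In the lid, Psmd6, a structural subunit, was at 102, 94.7 and 93.6 CPM with DMSO and 142, 144 and 143 CPM with Torin in D6 (log2 0.56, SE 0.074, adjusted p = 9.09e-05). Psmd14 was at 139, 137 and 130 CPM with DMSO and 181, 184 and 178 CPM with Torin (log2 0.42, SE 0.061, adjusted p = 0.000205). In both, the Torin libraries were close to each other and clear of the DMSO libraries. Psmd3, Psmd7 and Psmd12 rose by log2 0.31, 0.22 and 0.26. The calls of Psmd3 and Psmd7 were each lost without any one of 4 libraries, DMSO replicates 1 and 3 and Torin replicate 1 in both cases, with Torin replicate 3 for Psmd3 and Torin replicate 2 for Psmd7 (adjusted p 0.0577 to 0.0814 and 0.0509 to 0.0909). That of Psmd12 was lost without DMSO replicate 3 (adjusted p = 0.0520).

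Of the 3 core genes that rose in D6, 1 kept its call with any library left out. Psma3 was at 227, 210 and 212 CPM with DMSO and 257, 265 and 266 CPM with Torin (log2 0.28, SE 0.062, adjusted p = 0.00377). It was the one that kept its call, although in the limma fit of deposited values it had a log2 fold change of 0.16 (adjusted p = 0.166) and 0 core genes passed. Psma5, an alpha subunit, was at 152, 156 and 149 CPM with DMSO and 167, 167 and 190 CPM with Torin (log2 0.20, SE 0.070, adjusted p = 0.0394). Psmb3 was at 178, 176 and 161 CPM and 209, 192 and 225 CPM (log2 0.28, SE 0.088, adjusted p = 0.0236). In both, Torin replicate 3 was the highest library. Without it the log2 fold change was 0.13 for Psma5 (adjusted p = 0.186) and 0.22 for Psmb3 (adjusted p = 0.0859). Psma5 also failed to pass without any one DMSO library or Torin replicate 1 (adjusted p 0.0556 to 0.121), and Psmb3 without DMSO replicate 2 or 3 or Torin replicate 1 (adjusted p 0.0503 to 0.0973).

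The catalytic genes spread widely with Torin in D6. Psmb5 was at 73.6, 78.8 and 68.9 CPM with DMSO and 98.1, 77.6 and 125 CPM with Torin (log2 0.44, SE 0.18, adjusted p = 0.0765). Psmb7 was at 68.8, 69.8 and 60.7 CPM and 88.6, 69.6 and 123 CPM (log2 0.50, SE 0.22, adjusted p = 0.0996). Psmb6 ran the other way, at 288, 305 and 283 CPM and 256, 276 and 237 CPM (log2 -0.19, SE 0.077, adjusted p = 0.0711). None of the 3 passed. Without Torin replicate 2 all 3 passed (log2 0.59, 0.67 and -0.25, adjusted p = 0.0196, 0.0301 and 0.0329), and without Torin replicate 3 the values were 0.24, 0.24 and -0.15.

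**Figure D3:**
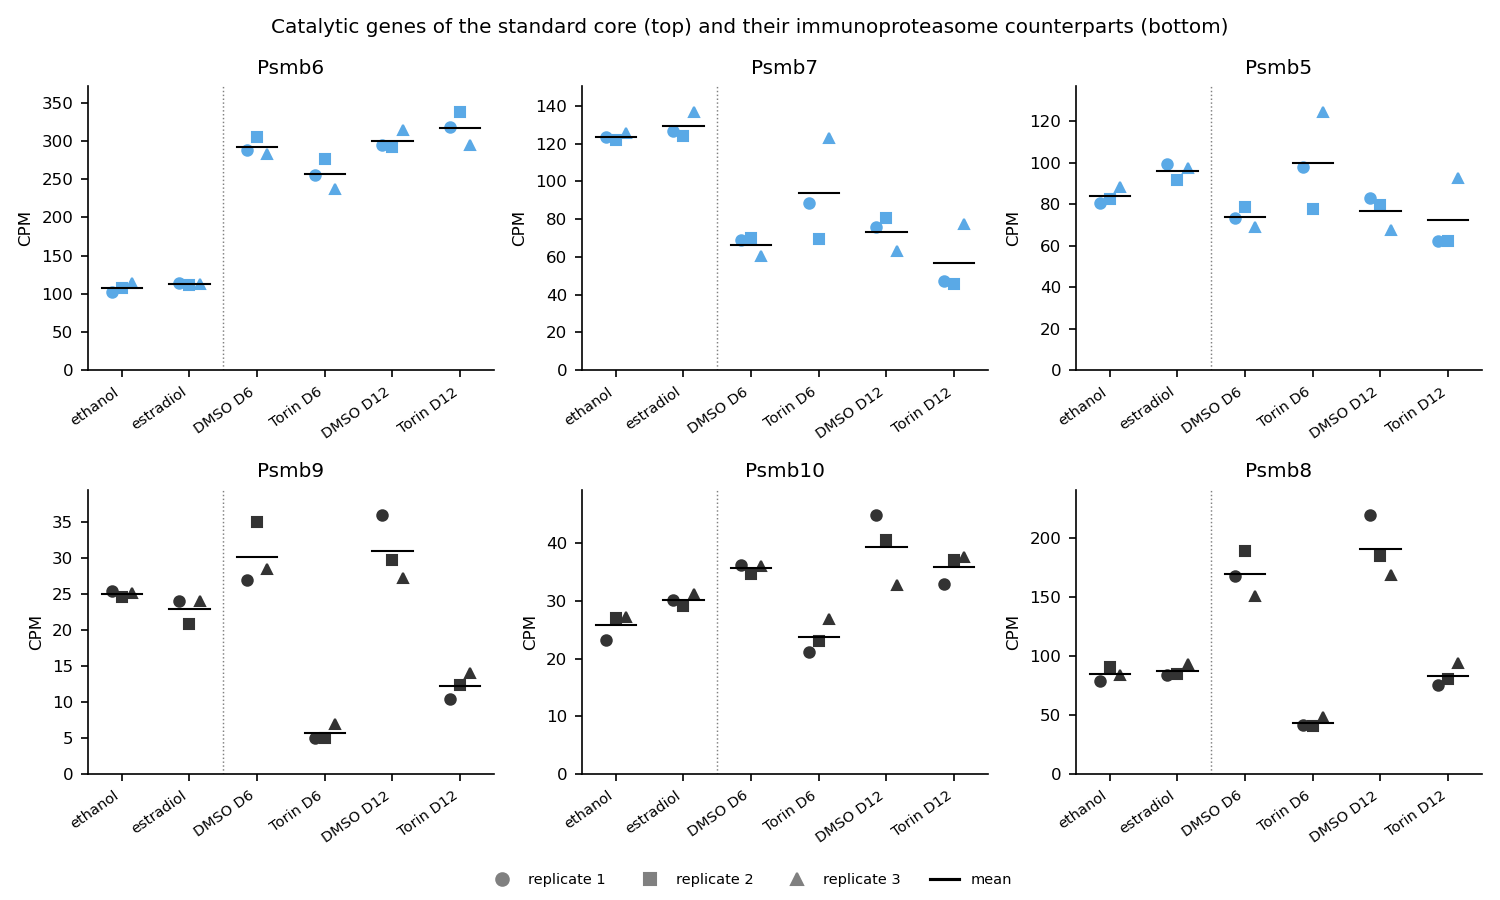
CPM (y axis) of the catalytic genes in every library, for the standard core (top) and the immunoproteasome (bottom), with marker shape for the replicate and a line for the group mean; the dotted line divides the separately normalized experiments. Within each Torin group Psmb5 and Psmb7 are highest in replicate 3, while all Torin libraries of Psmb8 and Psmb9 lie below all DMSO libraries.

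The immunoproteasome counterparts, which replace the standard catalytic subunits, are no members but show the contrast. With Torin in D6, Psmb8 fell by 1.97 and Psmb9 by 2.41 on the log2 scale, and Psmb10 by 0.59 (adjusted p = 3.98e-07, 1.17e-06 and 0.00272). In D12, Psmb8 fell to 0.436 times and Psmb9 to 0.396 times the DMSO level (adjusted p = 4.08e-05 and 0.000177), and Psmb10 did not pass (log2 -0.13). With estradiol, Psmb10 rose by 0.22 (adjusted p = 0.0239), and Psmb8 and Psmb9 did not pass (log2 0.04 and -0.12). All Torin libraries of Psmb8 and Psmb9 lay below all DMSO libraries in both arms, which was the case for none of the standard catalytic genes except Psmb6 in D6.

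Of the activators, 1 rose and 1 fell with Torin in D6. Psme3 was at 72.5, 57.4 and 66.0 CPM with DMSO and 98.5, 104 and 182 CPM with Torin (log2 0.97, SE 0.21, adjusted p = 0.00319), the highest change of any member. Torin replicate 3 carried much of its size, and without it the log2 fold change was 0.62 (SE 0.13, adjusted p = 0.00169). Psme2 was at 208, 209 and 193 CPM with DMSO and 159, 163 and 173 CPM with Torin (log2 -0.30, SE 0.082, adjusted p = 0.0117). Its near-identical copy Psme2b also fell (log2 -1.03, adjusted p = 0.00404), and how reads shared by both were assigned is not stated, so the value of Psme2 is uncertain. Psme1 was at 73.9, 79.9 and 69.4 CPM with DMSO and 68.7, 57.5 and 88.3 CPM with Torin (log2 -0.06, adjusted p = 0.840). Psme4 was at 42.8, 40.2 and 39.7 CPM and 40.0, 46.0 and 37.0 CPM (log2 0.00, adjusted p = 0.986). The inhibitor gene Psmf1 was at 70.1, 69.4 and 63.2 CPM and 72.6, 73.9 and 62.8 CPM (log2 0.05, adjusted p = 0.668). Groups overlapped in these last 3 genes.

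**Figure D4:**
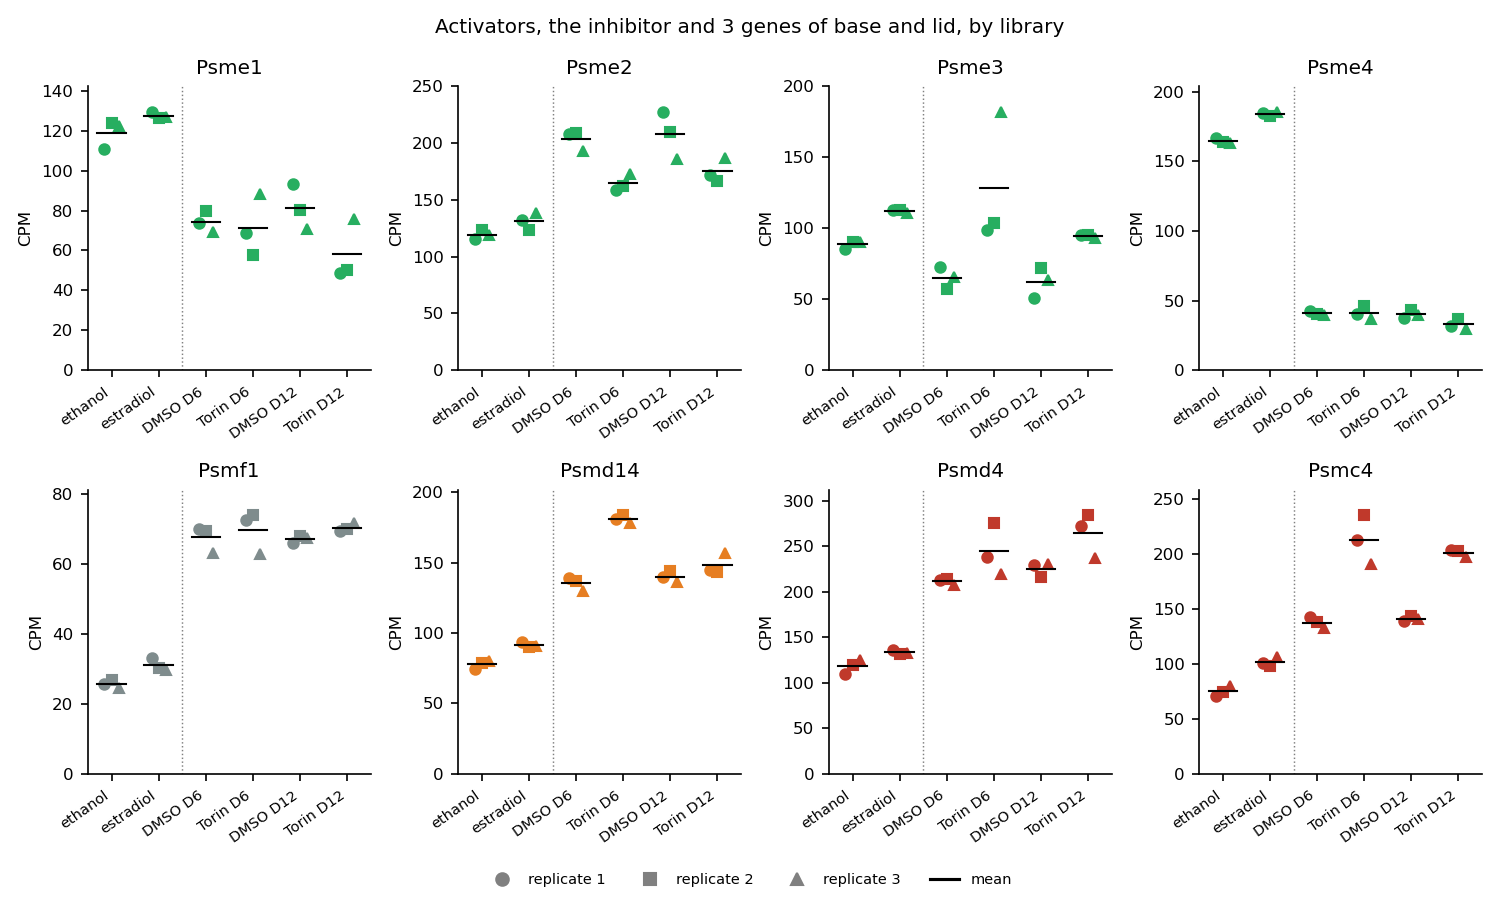
CPM (y axis) in every library for the 4 activators, the inhibitor Psmf1, the lid gene Psmd14 and the base genes Psmd4 and Psmc4, with marker shape for the replicate and a line for the group mean; the dotted line divides the separately normalized experiments. Psme3 and Psmc4 are higher in all Torin than in all DMSO libraries of either arm, with Psme3 at 182 CPM in Torin D6 replicate 3, and Psmd14 is raised in D6 alone of the Torin arms (adjusted p = 0.353 in D12).

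Of the chaperones, Psmg2, which with Psmg1 assembles the alpha ring, rose in D6 from 19.7, 21.3 and 21.8 CPM to 32.2, 28.4 and 36.9 CPM (log2 0.63, SE 0.12, adjusted p = 0.00129). Psmd10 rose from 85.4, 84.7 and 76.0 CPM to 114, 113 and 116 CPM (log2 0.48, SE 0.096, adjusted p = 0.00203). Psmg1 rose by log2 0.25 (adjusted p = 0.0162), but not without DMSO replicate 3 (adjusted p = 0.0591). Psmd5, a base chaperone, fell from 237, 246 and 230 CPM to 199, 209 and 153 CPM (log2 -0.35, SE 0.10, adjusted p = 0.0199). It did not pass without DMSO replicate 2 (adjusted p = 0.0648). Psmd9, Psmg3 and Psmg4 did not pass.

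The ratio of the base and lid sum to the core sum was 1.29, 1.27 and 1.33 in the DMSO libraries of D6 and 1.48, 1.60 and 1.33 in the Torin libraries. Torin replicate 3 alone lay within the DMSO range. Without it, 17 members rose and 2 fell. Core then held 1 rise among its 14 genes (median log2 0.12) and base and lid 12 among 17 (median log2 0.32). Psmd2 and Psmd4 passed in addition and Psmd3 no longer did. Of the 20 called members, 12 rises and the fall of Psme2 passed with each single library left out; the fewest rises, 12, came without DMSO replicate 3 and the most, 21, without Torin replicate 2.

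**Figure D5:**
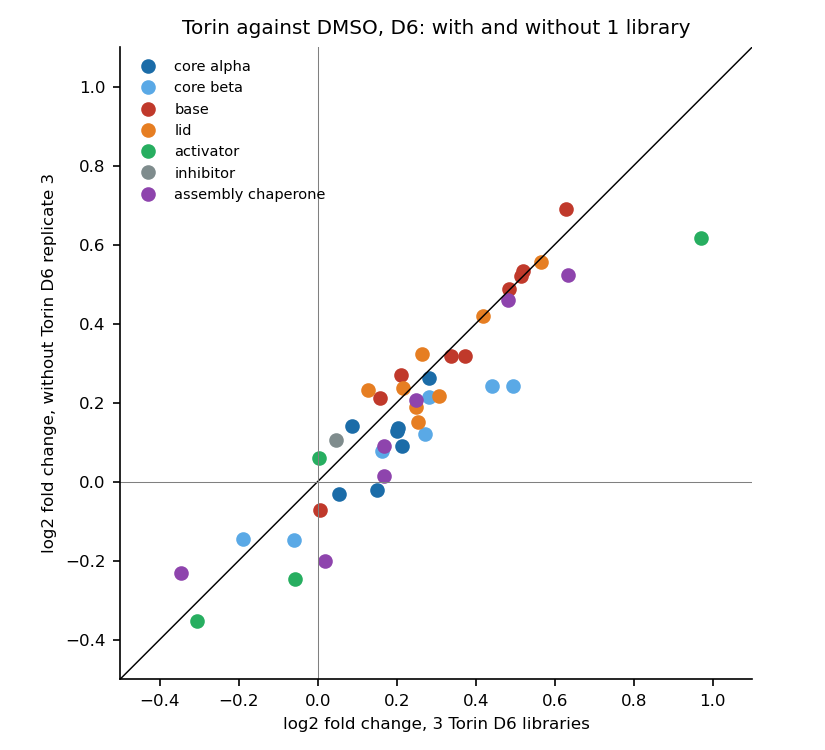
The log2 fold change of each tested member for Torin against DMSO in D6, with all 3 Torin libraries (x axis) and without Torin D6 replicate 3 (y axis), colored by class; the diagonal marks equal values. Most base and lid genes lie near the diagonal, while Psme3 (0.97 and 0.62), Psmb5 (0.44 and 0.24) and Psmb7 (0.50 and 0.24) lie below it.

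In D12 the call was limited to few members. Of the 43, 6 rose and 2 fell, while 10.8% of all genes rose and 14.6% fell, so the share of rises was near that of all genes. The log2 fold change was above 0 for 25 members, against 51.1% of all genes, with a median of 0.03, against 0.01. The groups did not overlap for 15 members, of which 13 were higher with Torin. Among all genes this held for 43.7% (7914 genes, of which 3755 were higher). Those that rose were Psmc3, Psmc4 and Psmc5 of the base, Psmd6 of the lid, Psma7 of the alpha ring and the chaperone Psmg1. The median log2 fold change was 0.15 for base, 0.07 for lid and 0.00 for core genes. The ratio of the base and lid sum to the core sum was 1.285, 1.292 and 1.333 with DMSO. With Torin it was 1.427, 1.38 and 1.327, where replicate 3 alone lay within the DMSO range.

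Psmc4 was at 138, 143 and 140 CPM with DMSO and 203, 202 and 197 CPM with Torin in D12 (log2 0.51, SE 0.075, adjusted p = 0.000421). Psmc5 was at 137, 136 and 133 CPM and 181, 178 and 181 CPM (log2 0.41, SE 0.056, adjusted p = 0.000260). Psmg1 was at 28.4, 29.4 and 29.7 CPM and 40.7, 39.8 and 42.0 CPM (log2 0.49, SE 0.071, adjusted p = 0.000434). The Torin libraries of these 3 genes were tightly grouped above DMSO, and these were the calls of D12 that passed with each library left out. Psma7 was at 376, 365 and 397 CPM and 472, 519 and 420 CPM (log2 0.31, SE 0.092, adjusted p = 0.0276), and was lost without replicate 1 or 2 of either group (adjusted p 0.0746 to 0.117). Psmd6 was at 95.3, 104 and 101 CPM and 119, 108 and 128 CPM (log2 0.24, SE 0.073, adjusted p = 0.0294), and was lost without any library other than Torin replicate 2 (adjusted p 0.0535 to 0.122; with the replicate number as a block, which leaves 5 rises, 0.0539). Psmc3 rose by log2 0.29 (adjusted p = 0.0171) and was lost without DMSO replicate 1 or 3 (adjusted p 0.0606 and 0.0618).

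The 2 members that fell in D12 were the ATPase Psmc6 and the activator Psme2. Psmc6 was at 211, 235 and 203 CPM with DMSO and 152, 168 and 200 CPM with Torin (log2 -0.32, SE 0.10, adjusted p = 0.0398). Psme2 was at 228, 209 and 186 CPM and 172, 167 and 187 CPM, so that its groups overlapped (log2 -0.25, SE 0.082, adjusted p = 0.0456). Both calls were lost without replicate 1 or 2 of either group (adjusted p 0.0817 to 0.155 and 0.113 to 0.196). With the replicate number as a block 1 fall was left, as Psmc6 did not pass (adjusted p = 0.0551) and neither did Psme2 (adjusted p = 0.0785), while Psme4 did (log2 -0.30, adjusted p = 0.0431).

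Psme3 did not pass in D12, at 50.7, 72.4 and 63.7 CPM with DMSO and 95.3, 95.3 and 93.1 CPM with Torin (log2 0.60, SE 0.21, adjusted p = 0.0533), although every Torin library was higher. It passed with DESeq2 (adjusted p = 0.0267) and in a fit of the 2 groups alone (adjusted p = 0.00422). Psme1 was at 93.3, 80.2 and 70.9 CPM and 48.6, 50 and 75.9 CPM (log2 -0.49, SE 0.19, adjusted p = 0.0811), and passed without Torin replicate 3 (log2 -0.73, adjusted p = 0.00944). Psme4 was at 37.8, 43.1 and 39.8 CPM and 31.6, 37.1 and 29.8 CPM (log2 -0.29, adjusted p = 0.0654). Psmf1 was at 66.1, 67.9 and 67.4 CPM and 69.5, 69.9 and 71.8 CPM (log2 0.07, adjusted p = 0.561). Of the 4 activators, Psme2 was the one that passed in D12, and differences between activators were not tested.

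Without Torin D12 replicate 3, 8 members fell in D12 in place of 2, among them the core genes Psmb7 (log2 -0.66, adjusted p = 0.0340), Psmb2 (-0.41, adjusted p = 0.0148), Psma1 (-0.32, adjusted p = 0.0287) and Psma2 (-0.45, adjusted p = 0.0414), and 6 rose. Among these rises Psmd4 (log2 0.30, adjusted p = 0.0272) took the place of Psmd6 (log2 0.18, adjusted p = 0.0883). With all 3 libraries, Psmb5 was at 83.2, 79.9 and 67.6 CPM with DMSO and 62.1, 62.1 and 92.8 CPM with Torin (log2 -0.09, adjusted p = 0.781). Psmb7 was at 76.0, 80.7 and 63.0 CPM and 47.3, 45.7 and 77.4 CPM (log2 -0.37, adjusted p = 0.267). In both genes Torin replicate 3 was high and the other Torin libraries were below all DMSO libraries. Psmb6 was at 294, 292 and 314 CPM and 319, 338 and 295 CPM (log2 0.08, adjusted p = 0.501). Psmd14 was at 139, 144 and 136 CPM and 145, 143 and 157 CPM (log2 0.08, adjusted p = 0.353), and Psmd4 at 229, 217 and 231 CPM and 272, 284 and 238 CPM (log2 0.23, adjusted p = 0.0832).

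The Torin effect itself was tested between arms. It was lower in D12 for 4 members and higher for 0, while 5.55% and 5.03% of all genes tested were lower and higher. DESeq2 also called 0 higher, and edgeR gave 2 at an unadjusted p under 0.05. The difference was above 0 for 8 of the 43, against 48% of all genes. The 4 were the base genes Psmc1 (difference of log2 fold changes -0.35), Psmc2 (-0.37) and Psmd1 (-0.38) and the deubiquitinase gene Psmd14 (-0.33). Each call was lost without DMSO D12 replicate 1, Torin D12 replicate 1 or Torin D12 replicate 2. It was also lost without DMSO D12 replicate 2 (Psmc1, Psmd1, Psmd14) or 3 (Psmc2, Psmd1), DMSO D6 replicate 1 (Psmc1, Psmc2, Psmd1), 2 (Psmd1, Psmd14) or 3 (Psmc1, Psmd1, Psmd14), and Torin D6 replicate 1 (Psmc2, Psmd1, Psmd14) or 2 (Psmd1, Psmd14), with adjusted p from 0.0510 to 0.102. The number of lower members ran from 0 (without DMSO D12 replicate 1, or Torin D12 replicate 1 or 2) to 12 (without Torin D12 replicate 3), and was 2 with the replicate number as a block, where Psmd1 and Psmd14 did not pass (adjusted p = 0.0649 and 0.0622). For DMSO D12 against DMSO D6 no member passed in either direction with edgeR or DESeq2, and 0 had an unadjusted p under 0.05 in edgeR, when 0% of all genes rose and 0.00552% fell. The log2 fold change was above 0 for 36 of the 43 members, against 52.8% of all genes, with a median of 0.05, against 0.01. The DMSO groups did not overlap for 11 of the 43, of which 9 were higher in D12, against 12.2% of all genes. Base and lid held 7 of these 11. Most members were thus slightly higher in DMSO D12, and the part of this shift in the difference between arms was not tested. Members without a call between arms are not shown to respond alike.

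Across the 3 treatment comparisons, which share no control libraries, Psmc3, Psmc4, Psmc5 and Psmd6 rose in each. The calls of Psmc4 and Psmc5 passed in each comparison with any one library left out. Those of Psmc3 and Psmd6 in D12 were lost without single libraries, as given above. Of the 25 members that rose with estradiol, 15 (60%) also rose with Torin in D6, where they made up 83.3% of the 18 rises. Of all genes tested in both experiments, 54.9% of the 2497 that rose with estradiol also rose in D6, and they made up 43.9% of the 3128 rises there, so the 60% of the members is near the share of all genes. The 15 held 6 base genes, 5 lid genes, the core genes Psma3 and Psmb3, the activator Psme3 and the chaperone Psmd10. Psmd10, Psme3 and Psmc2 had 0.26, 0.34 and 0.41 as log2 fold change with estradiol and 0.48, 0.97 and 0.52 with Torin in D6. Psme2 had a log2 fold change of 0.14 with estradiol and of -0.30 and -0.25 in the Torin arms. Its calls with estradiol and in D12 were lost without single libraries, as given above, and with the replicate number as a block (adjusted p = 0.0741 and 0.0785), and reads shared with Psme2b leave its level uncertain.

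A list of 28 further genes of the pathway was read beside the members: ubiquitin genes and activating enzymes, shuttle factors, deubiquitinases, receptors, maturation and transcription factors. With estradiol 13 rose (46.4%, against 17.4% of all genes) and 3 fell (10.7%, against 16.6%). With Torin in D6, 16 rose (57.1%, against 19.8%) and 1 fell (3.57%, against 19.3%). In D12, 4 rose (14.3%, against 10.8%) and 3 fell (10.7%, against 14.6%), shares near those of all genes. Adrm1, a ubiquitin receptor of the regulatory particle, rose in all 3 (log2 0.41, 0.48 and 0.37). Vcp, the segregase that delivers substrates, rose with estradiol (0.27) and in D6 (0.42). Nploc4, its cofactor, rose by 0.35 with estradiol. Usp14, a deubiquitinase bound to the base, Uba6, an activating enzyme, and Zfand2a, a stress-induced adaptor, rose in D6 by 0.37, 0.55 and 0.76. In D12, Ngly1, a deglycosylase that processes Nfe2l1, the shuttle factor Ubqln4 and the polyubiquitin gene Ubb rose by 0.38, 0.51 and 0.56, and Fbxo7 fell by 0.41.

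Nfe2l1, a transcription factor known to raise proteasome genes when the proteasome is inhibited, did not pass in any comparison (log2 -0.04 with estradiol, -0.13 in D6 and -0.21 in D12). Ddi2, the protease that cleaves it, fell with estradiol (log2 -0.29, adjusted p = 0.000165). Nfe2l2, a related factor, fell with estradiol (log2 -0.28) and in D12 (-0.21), the latter not without Torin D12 replicate 3 (adjusted p = 0.0816). Pomp, which matures the core, did not pass in any (0.09, 0.04 and -0.08). Sem1, a small subunit of the lid outside the Psm symbols, fell by 0.14 with estradiol (adjusted p = 0.0447) and did not pass with Torin (log2 0.00 and -0.26). In D6, the rises of Akirin2, which brings proteasomes into the nucleus, and of the shuttle factor Ubqln1 rested on Torin replicate 3. Akirin2 was at 5.79, 4.29 and 5.05 CPM with DMSO and 4.65, 5.18 and 50.01 CPM with Torin. Ubqln1 was at 41.3, 44.9 and 52.1 CPM and 63.3, 51.5 and 344 CPM. Without that library neither passed (adjusted p = 0.856 and 0.132), and 14 genes of the list rose and 2 fell.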

How the data were processed

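Polyadenylated RNA of 18 libraries in 6 groups was analysed, grouped by the sample labels. The genome GRCm39 and the tools kallisto, DESeq2, Trim Galore, cutadapt, MultiQC and FastQC stand in the submitters' processing notes, without versions or roles. The estradiol table holds expected counts (estimated, not whole numbers of reads) per gene as deposited by the authors; how they were estimated is not given in the sources used here. Of its values 32.2% are not whole, and they were rounded. The Torin table holds counts per gene symbol, whole numbers as the authors deposited them. A signal per gene, which the authors normalized with factors that differ between genes, is deposited too and served one alternative only. Of the estradiol features, 39334 took a symbol from the deposited tables, 12652 from an identifier table and 4705 had none; 4 listed genes were found by identifier.

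Each experiment was fitted over its whole table in R 4.3.3 with edgeR 4.0.16 (filterByExpr, TMM, group means, quasi-likelihood test). Benjamini-Hochberg adjusted p under 0.05 was the threshold, and the words rose and fell refer to it. CPM are relative to the TMM-scaled total. The estradiol fit, and a fit of the 2 D6 groups alone, were checked on simulated data in which no library stood apart. The fit of all Torin libraries together, with D12 and the difference between arms, was not checked in this way. Members, classes, lists and tests were chosen with earlier results of these data known. Named with values in every library are the catalytic genes, Psmd14, Psmd4, the activators, the inhibitor and, per treatment comparison and class, the 2 called members with the lowest p; any other member could be named with its fold change, and of the pathway list Nfe2l1, Pomp, Adrm1, Sem1 and the 4 genes with the lowest p. Other genes named, and Psmc6 with its values, were picked with their values known.

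As alternatives, DESeq2 1.42.0, RLE factors, no filter, 1 CPM in 3 libraries, adjusted p under 0.01, only the 2 groups compared, a replicate block, limma 3.58.1 on log2(deposited signal + 1) with a mean of at least 10, and the omission of each library were tried. Added after seeing the data was the omission of replicate 3 of both Torin groups. Replicate numbers did not pair the libraries: correlations of their deviations from group means ran from -0.0939 to 0.0931. Whether replicates are separate mice, cultures or wells is not stated, so p-values measure the spread between these libraries. Samples of the series beyond these were not analysed here.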

Additional observations from a re-analysis of the deposited data

Results flagged for a closer look

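The Torin effect differed between the arms, by the edgeR test of the difference itself, for the 4 members Psmc1, Psmc2, Psmd1 and Psmd14. The difference of log2 fold changes, D12 minus D6, was -0.35 for Psmc1 (SE 0.082, adjusted p = 0.0203), -0.37 for Psmc2 (adjusted p = 0.0243), -0.38 for Psmd1 (adjusted p = 0.0324) and -0.33 for Psmd14 (adjusted p = 0.0287). These 4 calls were lost at an adjusted p under 0.01, without the low-count filter (adjusted p 0.131 to 0.196) and in the limma fit of deposited values (0.0572 to 0.105). It also differed for 5 of the 28 genes of the pathway list (17.9%, against 5.55% of all genes), Uba6 (-0.60), Uchl5 (-0.38), Usp14 (-0.44), Vcp (-0.40) and Zfand2a (-0.85), all lower in D12. For the immunoproteasome genes Psmb8 (0.77) and Psmb9 (1.07) the difference was positive, as their fall was smaller in D12. Batch, length and start of treatment cannot be told apart between the arms, and their part in these differences was not tested.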

How the results depend on the processing

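Of the counts of members called, those for rises with estradiol and in D6 were within 1.5 times of the value given under all alternatives except the limma fit of deposited values, which called 12 rises with estradiol. At an adjusted p under 0.01, 3 members rose and 0 fell in D12, 0 fell in D6 and the Torin effect was lower in D12 for 0. Without the low-count filter, 1 fell in D12 and 0 were lower between arms, and the limma fit of deposited values called 0 lower. In a fit of only the 2 groups, 1 fell in D6 and 0 in D12. For estradiol that fit is the main one, and the difference between arms needs 4 groups, so neither was run. Without replicate 3 of both Torin groups, 10 rose and 10 fell in D12, and the Torin effect was higher in D12 for 1 member and lower for 13. The cause of these shifts was not tested.

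With the replicate block, 23 members rose with estradiol, 17 rose and 2 fell in D6, 5 rose and 1 fell in D12, and 2 were lower between arms. Psma5 in D6 and Psmb2 and Psme2 with estradiol did not pass with it (adjusted p = 0.0606, 0.0728 and 0.0741). Leaving out single libraries gave 22 to 25 rises and 0 to 1 falls with estradiol (the fall being Psmb1 without estradiol replicate 3), 12 to 21 rises and 1 to 3 falls in D6, 3 to 6 rises and 0 to 8 falls in D12, and 0 to 12 lower members between arms. For DMSO D12 against D6 every fit gave 0 and 0. Over all settings, 1929 values were compared, of members in the 3 treatment comparisons and of the 4 members called between arms. Of these values, 64 changed sign, none of them past the threshold. DMSO D12 against D6 and members without a call between arms were left out of this count. With 3 libraries a group, changes within the spread of the Torin libraries could not be detected.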
